A study of Homo sapiens with 6 samples.

Results

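Replicate 1 comprised 2 of the 6 libraries made from sorted M14 spheres, 1 from CD20-negative and 1 from CD20-positive cells. It was set against the 4 libraries of replicates 2 and 3. Replicate 1 was singled out because its gene expression values deviated from those of the other replicates alike in both sorted fractions of these data. Since it was chosen by these expression values, its differences are a description, given with standard errors and without a test. The study asked which transcripts mark the CD20-positive cells of spheres grown from M14, an established human melanoma line. Cells were cultured without attachment, the spheres were broken up mechanically, and cells bound by a CD20 antibody were separated from unbound cells in a flow sorter. Polyadenylated RNA of the 3 CD20-negative and 3 CD20-positive fractions was sequenced after TruSeq library preparation on a NovaSeq instrument. All 6 libraries share the line, the sphere culture and the sort, and the labels name no treatment or genetic change. The labels number the replicates without saying that they came from separate cultures, so the spread between them may be technical. In RNA from a mixed population, fewer cells of a type and less RNA per cell cannot be told apart.

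Expression was given as FPKM, a fragment count divided by exon length and by a scaling value of each library. That value did not follow the fragment totals, which were 17564547 in CD20-negative and 17479739 in CD20-positive replicate 1. In these 2 libraries GNG11 had 159 FPKM from 9154 fragments and 118 FPKM from 5459 fragments. Of 58395 genes in the table, 13155 averaged 1 FPKM or above across all libraries and were analysed. Since this filter used all 6 libraries, a gene could pass on the level of replicates 2 and 3 alone, as CA9 did. It could also pass on the level of replicate 1 alone, as FOSB did. The offset of a gene is its log2(FPKM + 1) in replicate 1 minus the mean of replicates 2 and 3 of the same fraction, averaged over both fractions. Because 1 was added to each value, it understates the change of genes with low values. A gene was called set apart when both replicate 1 libraries lay on one side of all 4 others, the offset had the same sign in each fraction and its mean was at least 1, that is 2-fold. These criteria were met by 488 genes, 3.71% of those analysed. They were 176 higher genes (1.34%) and 312 lower genes (2.37%), among them 144 and 145 protein-coding genes. The split was 96 and 530 when each library was scaled to its FPKM total, and 120 and 454 when mitochondrial genes were left out of that total. Without the demand for 2-fold, 5828 genes (44.3%) did not overlap: 3094 genes (23.5%) were higher and 2734 (20.8%) lower in both replicate 1 libraries than in every other library. As this contrast chose replicate 1, these shares serve only as the background for the gene groups below. At the threshold, CRIPT (offset 1.0001) and EFEMP2 (-1.0002) lay just inside, and the noncoding genes ADIRF-AS1 and RNU6-1223P (both -0.998) just outside.

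Both replicate 1 libraries stood apart from their fraction. The root mean square log2 difference between CD20-negative replicates 1 and 2 was 0.477 and between 1 and 3 it was 0.470, against 0.276 between replicates 2 and 3. In the CD20-positive fraction these distances were 0.579, 0.625 and 0.297. Across genes, which are not independent replicates, the offsets in the CD20-negative and CD20-positive fractions had a Pearson correlation of 0.67, and 74.5% of genes had the same sign in both. Fewer genes reached 1 FPKM in replicate 1 (12738 and 12673) than in the other libraries (13211 to 13492). Depth was 15651149 to 17915933 fragments per library, and replicate 1 lay within that range.

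**Figure D1:**
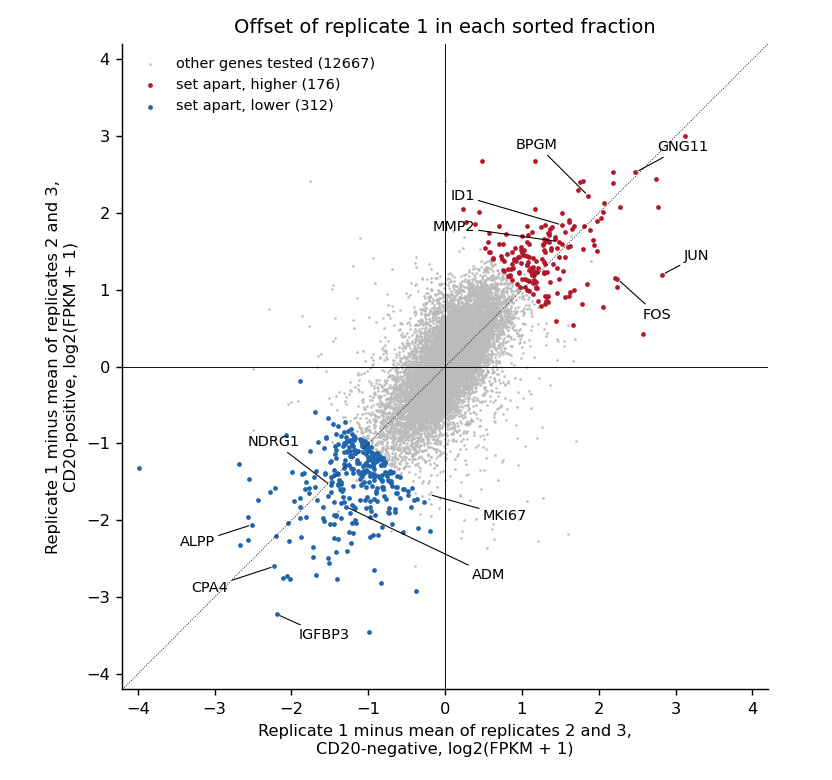
Offset of replicate 1 on the log2(FPKM + 1) scale in the CD20-negative fraction (horizontal axis) and the CD20-positive fraction (vertical axis), 1 point per analysed gene, with the dotted line marking equal offsets. The 176 genes set apart higher (red) and 312 set apart lower (blue) lie in the upper right and lower left corners, and JUN and MKI67 lie away from the dotted line.

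The labelled cell identity was checked against marker genes. Of 10 melanocyte markers 3 reached a mean of 1 FPKM. MITF, the melanocyte master regulator, ranged from 1.72 to 2.34 FPKM over the 6 libraries, PMEL from 8.73 to 33.8 FPKM and GPR143 from 1.26 to 13.4 FPKM. SOX10, TYR, TYRP1, DCT and S100B stayed at or below 0.0914 FPKM, MLANA at or below 0.262 FPKM, and SLC45A2 was listed at 0 throughout. Only 3 of the 10 markers were thus expressed. The lineage markers SOX10, S100B and MLANA were near 0 in every replicate, like the pigment enzymes. These markers alone do not bear out the melanoma label, which was kept as given. MS4A1, which encodes CD20, had 0.225 FPKM in CD20-negative and 1.24 FPKM in CD20-positive replicate 1, against 0.263 and 0.403 FPKM and 0.966 and 1.28 FPKM in the other replicates, so replicate 1 did not stand out at the sorted antigen. The summed level of 12 B cell markers was 4.10 and 6.22 FPKM in replicate 1 and 6.96 to 8.38 FPKM in the others, with CR2, BANK1 and TCL1A at 0 everywhere. Fibroblast markers summed to 62.9 FPKM in CD20-negative replicate 1 against 86.2 and 78.0 FPKM, and to 104 FPKM in CD20-positive replicate 1 against 131 and 144 FPKM. The sum was thus lower within each fraction, but its members were not alike. COL3A1, the largest part of that sum, had an offset of -0.88, while COL1A1 had 0.03 and PDGFRB 1.75. Keratinocyte markers summed to 199.7 FPKM against 222 and 190.5 FPKM in CD20-negative and to 257 FPKM against 155 and 147 FPKM in CD20-positive cells. SFN made up most of that sum, at 170 and 237 FPKM in replicate 1, and KRT10 most of the rest. KRT5, KRT14 and TP63 stayed at or below 0.293 FPKM, and the other 5 markers were at 0 throughout. The endothelial marker sum was lower in CD20-negative replicate 1, at 39.6 FPKM against 47.8 and 44.5 FPKM, and higher in CD20-positive replicate 1, at 62.8 FPKM against 51.8 and 58.8 FPKM. EGFL7 made up most of it, at 29.4 and 50.7 FPKM in replicate 1. T and NK cell markers summed to at most 2.72 FPKM and macrophage and granulocyte markers to at most 0.70 FPKM in any library. The part of other cell types in the offsets was not tested.

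The list named TGF-beta targets had the highest median offset in replicate 1. TGF-beta ligands activate receptor kinases that phosphorylate SMAD proteins, which enter the nucleus and switch on genes. Some of these encode secreted proteins that act on the matrix, others inhibitors that dampen the same pathway, and in melanoma the pathway is known for its part in invasive states. Besides targets, the list holds parts of the pathway itself, namely TGFB1, TGFB2, TGFBR1 and LTBP genes. Of 19 listed genes 14 were analysed, and 6 of them were set apart higher and 0 lower. The list's median offset was 0.88, against 0.02 over all genes analysed, and all 14 offsets were positive.

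PMEPA1, a membrane protein that sequesters SMADs (ENSG00000124225, GRCh38 chromosome 20), had 40.5 FPKM in CD20-negative and 58.6 FPKM in CD20-positive replicate 1. The others gave 11.1 and 10.5 FPKM in CD20-negative and 15.7 and 15.8 FPKM in CD20-positive replicates 2 and 3, an offset of 1.82 ± 0.11 (limma SE, 2 against 4 libraries taken as separate values, as throughout). The same order of libraries is used below. SMAD7, the inhibitory SMAD that blocks the receptor, had 8.59 and 9.97 FPKM against 2.73, 2.67, 2.74 and 2.78 FPKM. SKIL, a SMAD corepressor, had 11.03 and 10.6 FPKM against 2.11, 2.85, 3.21 and 2.87 FPKM. For each of these inhibitors the 4 other libraries lay close together and the 2 of replicate 1 far above them. BAMBI, a decoy receptor, had 13.3 and 15.8 FPKM against 3.67 to 5.06 FPKM, and ID1, an inhibitor of helix-loop-helix transcription factors, 30.03 and 41.7 FPKM against 9.22 to 11.1 FPKM. SMAD6 (offset 0.96) and TGFBI (0.62) were higher without overlap but short of 2-fold. CCN2 was high in CD20-negative replicate 1 only, at 3.71 FPKM, and had 0.566 FPKM in CD20-positive replicate 1, inside the range of the others.

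Immediate-early genes encode transcription factors and signalling inhibitors that are transcribed within minutes of a growth or stress stimulus, without new protein synthesis. FOS and JUN proteins pair to form the factor AP-1. Of 21 listed genes 19 were analysed, 8 were set apart higher and 0 lower, and the median offset was 0.69. The exception was MYC, which was lower in both replicate 1 libraries, at 153 and 149 FPKM against 205 to 242 FPKM (offset -0.53 ± 0.15). The proximal promoters of FOS and FOSB are shown because they carry the TATA box letters found in 4 of the 7 set-apart immediate-early genes with a promoter in the RefSeq table (FOS, FOSB, JUNB and DUSP1). Each run is the 250 bases before the first start listed for the gene in GRCh38.p14, on the plus strand, with TATAAA in capitals. FOS lies at chr14:75278578-75278827 and FOSB at chr19:45467746-45467995.
FOS: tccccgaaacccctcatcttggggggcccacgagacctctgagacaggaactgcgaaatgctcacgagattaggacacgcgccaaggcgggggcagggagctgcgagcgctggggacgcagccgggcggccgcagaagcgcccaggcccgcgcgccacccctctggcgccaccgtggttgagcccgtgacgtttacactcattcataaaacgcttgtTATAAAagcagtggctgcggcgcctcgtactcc
FOSB: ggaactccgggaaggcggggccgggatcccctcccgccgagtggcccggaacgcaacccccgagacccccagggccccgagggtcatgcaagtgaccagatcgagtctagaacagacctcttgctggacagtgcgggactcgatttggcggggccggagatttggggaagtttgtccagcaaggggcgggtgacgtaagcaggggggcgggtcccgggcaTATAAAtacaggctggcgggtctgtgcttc
The match begins 33 bases before the FOS start and 30 before the FOSB start. TATAAA, on either strand, occurred in 11.1% of all 27305 promoters of that length and in 4.86% of the 9241 matched to analysed genes. It was in 13 of 120 promoters of higher genes and 13 of 125 of lower genes, so its share did not separate the directions. The AP-1 letters TGANTCA were in 0 of these 7 promoters, in 11 of the 120 (9.17%) and 9 of the 125 (7.2%), against 3.63% of the promoters of analysed genes.

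FOS had 90.6 FPKM in CD20-negative and 42.6 FPKM in CD20-positive replicate 1, against 28.4, 11.7, 27.7 and 12.6 FPKM in the others. Its offset of 1.69 had an SE of 0.57, since replicates 2 and 3 differed from each other by more than 2-fold in each fraction. JUN had 21.7 and 8.84 FPKM against 2.34, 2.08, 3.03 and 3.59 FPKM. FOSB had 7.67 and 1.20 FPKM against 0.444 to 0.719 FPKM, so most of its offset came from the CD20-negative library. Only through replicate 1 did FOSB pass the filter on level, so its place among the 8 rests on those values. KLF2, a zinc-finger factor induced by flow and stress signals, had 19.0 and 12.7 FPKM against 3.28 to 5.45 FPKM. EGR1, a serum-induced zinc-finger factor, had 35.1 and 11.7 FPKM, and the second value was close to the 11.7 FPKM of CD20-negative replicate 2. DUSP1, the phosphatase that switches off MAP kinases, had 102 and 81.8 FPKM against 28.0 to 49.7 FPKM, and JUNB 212 and 163 FPKM against 64.4 to 107 FPKM. CCN1, a secreted matricellular protein, completed the 8 with 28.7 and 17.9 FPKM against 7.37 to 9.25 FPKM. All 8 were higher in the CD20-negative than in the CD20-positive library of replicate 1.

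Genes that report ERK pathway output lay in the same direction. Of 17 analysed, 2 were set apart higher and 0 lower, and 11 were higher and 2 lower without overlap, with a median offset of 0.69. ETV4, an ETS factor, had 11.7 and 9.03 FPKM against 2.63, 2.79, 4.41 and 5.02 FPKM. CCND1, cyclin D1, had 45.0 and 47.8 FPKM against 17.0 to 21.1 FPKM. The phosphatases DUSP4 and DUSP6 had offsets of 0.74 and 0.79 and did not overlap.

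**Figure D2:**
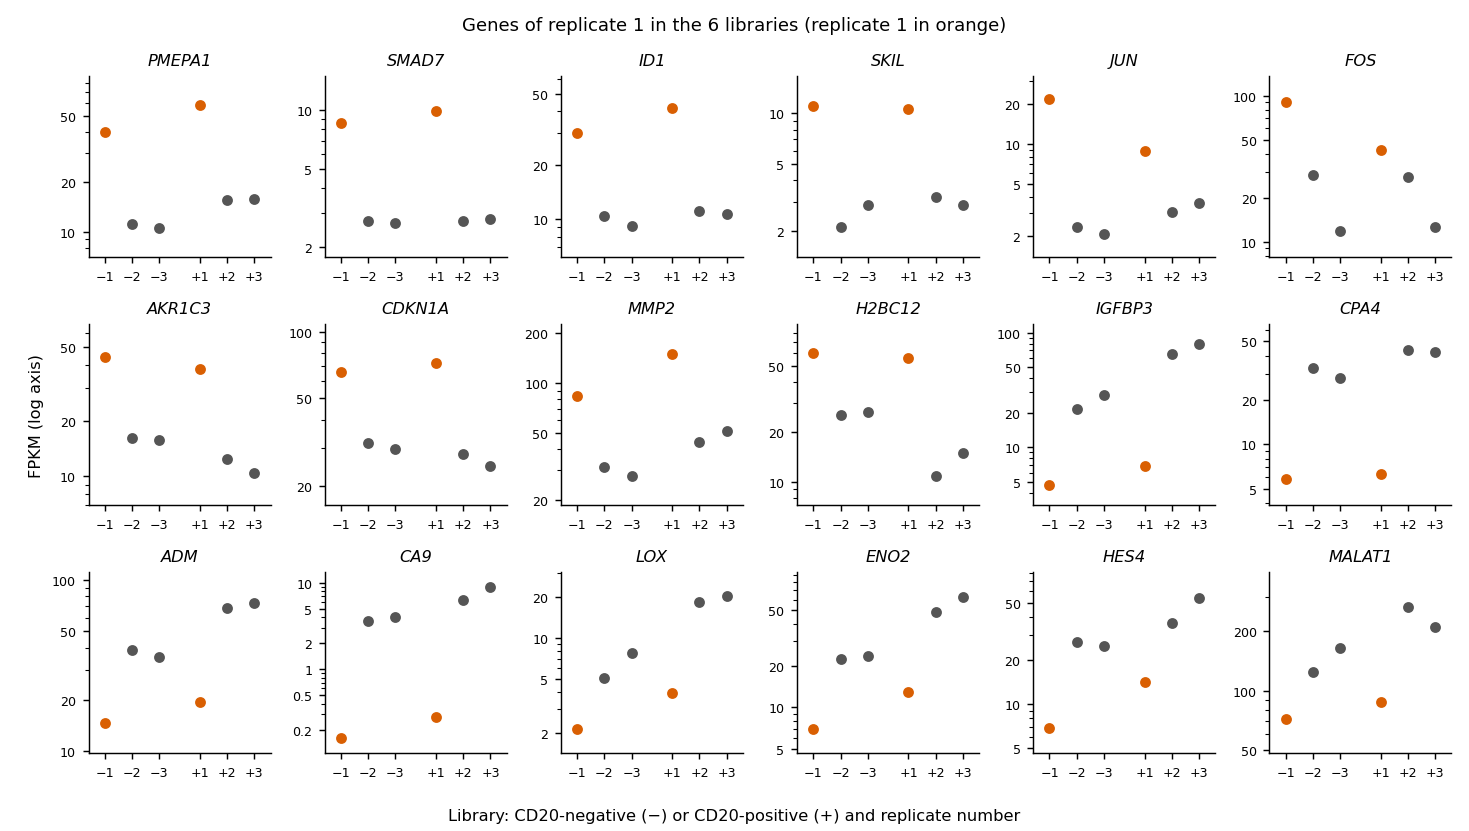
FPKM on a log axis of 18 genes described in the text, 1 panel per gene and 1 point per library (labelled by the sign of the fraction and the replicate number), with replicate 1 in orange and replicates 2 and 3 in grey. In every panel both orange points lie on one side of the 4 grey points, above them from PMEPA1 to H2BC12 and below them from IGFBP3 to MALAT1.

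Targets of NRF2, the factor that induces antioxidant and detoxifying enzymes, were also higher. All 24 listed genes were analysed, 6 were set apart higher and 0 lower, 16 were higher without overlap, and the median offset was 0.66. AKR1C1 had 14.3 and 19.0 FPKM against 3.69 to 4.57 FPKM (offset 1.76 ± 0.14), and AKR1C3 had 44.5 and 38.1 FPKM against 10.4 to 16.1 FPKM. The aldo-keto reductases AKR1C1 and AKR1C2 (offset 1.18) are near-identical copies, and AKR1C3 is a more distant relative. The division of reads among them is uncertain, most of all between AKR1C1 and AKR1C2. PRDX1, a peroxide-reducing peroxiredoxin, had 348 and 279.9 FPKM against 108 to 200.4 FPKM. FTL, the ferritin light chain with many pseudogene copies, had 1214 and 1267 FPKM, above the others in both fractions but by less in CD20-negative (0.57) than in CD20-positive cells (1.74). NQO1 and HMOX1, textbook NRF2 targets, had offsets of 0.88 and 0.82 and did not overlap. The metal-binding metallothionein MT2A had 116 and 115 FPKM against 37.7 to 61.3 FPKM.

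Replication-dependent histone genes, whose mRNAs normally lack a poly(A) tail, had a median offset of 0.75 over the 13 analysed of 32 listed, with 4 set apart higher and 0 lower. That median was 0.32 at a pseudocount of 5 and 0.17 with no filter on level. H2BC12 had 59.9 and 55.8 FPKM against 25.5, 26.5, 10.8 and 14.9 FPKM. H2AC20 (offset 1.57), H2AC6 (1.40) and the linker histone H1-2 (1.11) were the others. Histone genes of a family share sequence, so reads may be divided among them with error. The higher histone values did not go with higher values of the replication genes described below.

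Among p53 targets 2 of 21 were set apart higher and 0 lower, with a median offset of 0.39. CDKN1A, the cyclin-dependent kinase inhibitor p21, had 66.1 and 72.3 FPKM against 24.7 to 31.4 FPKM. TIGAR, which lowers glycolytic flux, had an offset of 1.00. The interferon list had 3 of 22 set apart higher and 0 lower at a median of 0.23. IFI35 (offset 1.45), OASL (1.24) and the ubiquitin-like ISG15 (1.19) were those 3, while DTX3L was lower without overlap (-0.38), so the list was not uniform.

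Genes of the mesenchymal state and of matrix turnover held several of the strongest offsets. Of 12 analysed mesenchymal genes 4 were set apart higher and 0 lower (median 0.42). FOXC2, a forkhead factor of mesenchymal cells, had 39.7 and 48.8 FPKM against 9.37, 9.30, 10.8 and 14.2 FPKM (offset 1.94 ± 0.13); its antisense partner overlaps it and the strand setting of the counting is not given. MMP2, a gelatinase, had 84.0 and 149.9 FPKM against 27.8 to 51.3 FPKM. PDGFRB, the PDGF receptor beta, had 7.54 and 13.4 FPKM against 1.70 to 2.95 FPKM. It is also a fibroblast marker; of the others COL1A2, DCN, LUM and PDGFRA were at or below 0.0421 FPKM in every library, and COL1A1 and COL3A1 were expressed in all 6. S100A4 was the fourth (offset 1.01). Of 20 analysed matrix proteases and inhibitors, 4 were set apart higher and 1 lower. SERPINE2 (1.76), MMP2 and the urokinase PLAU (1.17) were on the higher side and the metalloprotease ADAMTS1 (-1.39) on the lower. The extracellular matrix list was divided, with THBS1 (1.11) higher, LOX (-1.63) lower and a median of -0.06 over 34 genes.

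Among protein-coding genes with a mean of 10 FPKM or more, those with the largest offset held in both fractions included, in order of the smaller of the 2 fraction values, GNG11, IGFBP7, FOXC2, BPGM, PMEPA1, F2RL1, TIMP4, YPEL5, LYPD3, ID1 and VMP1. GNG11, a G protein gamma subunit (ENSG00000127920, GRCh38 chromosome 7, 93921699 to 93928610), had 159 and 118 FPKM against 26.1, 29.6, 22.8 and 16.9 FPKM (offset 2.50 ± 0.15). IGFBP7, a secreted protein that binds insulin and growth factors, had 163 and 235 FPKM against 32.1 to 46.3 FPKM. For both, the 2 replicate 1 libraries lay far above the other 4. BPGM, bisphosphoglycerate mutase, had 21.5 and 21.7 FPKM against 3.31 to 5.20 FPKM. F2RL1, a protease-activated receptor, had 47.2 and 55.3 FPKM against 11.98 to 16.4 FPKM, and TIMP4, a metalloproteinase inhibitor, 24.3 and 28.0 FPKM against 4.35 to 7.31 FPKM. The offsets of YPEL5, LYPD3 and the autophagy protein VMP1 were 1.75, 1.60 and 1.74.

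On the lower side the hypoxia response held the clearest group. Cells short of oxygen stabilise the HIF transcription factors, which bind the core letters ACGTG and induce genes of glucose uptake, pH control, vessel growth and matrix cross-linking. All 27 listed genes were analysed, 7 were set apart lower and 0 higher, 16 were lower without overlap and 2 higher, and the median offset was -0.64. The promoters of CA9 and LOX are shown because they hold ACGTG, the only 2 to do so among the 4 set-apart hypoxia genes with a promoter in the table (CA9, LOX, ADM and PFKFB4). Each run is the 250 bases before the first start listed for the gene in GRCh38.p14, written along the gene's strand, with ACGTG on either strand in capitals. CA9 lies at chr9:35673678-35673927 on the plus strand and LOX at chr5:122078260-122078509 on the minus strand.
CA9: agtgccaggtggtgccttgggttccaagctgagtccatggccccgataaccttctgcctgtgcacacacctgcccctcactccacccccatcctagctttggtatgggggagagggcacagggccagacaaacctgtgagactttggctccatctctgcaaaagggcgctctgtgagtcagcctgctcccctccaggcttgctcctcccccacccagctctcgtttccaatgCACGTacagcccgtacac
LOX: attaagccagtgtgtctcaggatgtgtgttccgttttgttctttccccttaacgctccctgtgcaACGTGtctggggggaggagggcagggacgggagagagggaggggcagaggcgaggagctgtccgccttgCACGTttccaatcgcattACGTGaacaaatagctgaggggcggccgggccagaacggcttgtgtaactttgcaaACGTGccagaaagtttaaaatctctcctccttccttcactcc
CA9 has 1 match, 18 bases before the start, and LOX has 4. ACGTG, which also lies within the E-box letters CACGTG, was in 23.8% of promoters of analysed genes, in 17.5% of those of higher genes and in 20.8% of those of lower genes.

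CA9, the carbonic anhydrase that acidifies the outside of hypoxic cells, had 0.159 FPKM in CD20-negative and 0.277 FPKM in CD20-positive replicate 1, against 3.63, 3.996, 6.27 and 8.86 FPKM in the others (offset -2.39 ± 0.18). Replicate 1 was nearly without it. LOX, the collagen cross-linking lysyl oxidase, had 2.11 and 3.94 FPKM against 5.005, 7.65, 18.4 and 20.2 FPKM. ADM, the vasoactive peptide adrenomedullin, had 14.6 and 19.4 FPKM against 39.1, 35.7, 68.5 and 73.7 FPKM, and NDRG1, a stress-responsive gene, 13.1 and 20.6 FPKM against 34.5, 43.4, 60.9 and 63.4 FPKM. In these genes the CD20-positive libraries of replicates 2 and 3 were the highest. STC1 (-1.36), the glycolytic regulator PFKFB4 (-1.20) and the glucose transporter SLC2A3 (-1.02) made up the 7. VEGFA, the vessel growth factor, was lower without overlap at -0.93, but SLC2A1 (0.16) and ANGPTL4 (-0.01) overlapped between replicate 1 and the others, and CA12 (0.35) was higher.

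Glycolysis enzymes as a list had a median of 0.00 over 18 genes, with 2 set apart lower. ENO2, the neuron-type enolase, had 7.01 and 12.96 FPKM against 22.2, 23.5, 48.8 and 62.8 FPKM, and HK2, a hexokinase, 14.5 and 13.6 FPKM against 26.7, 30.3, 39.0 and 40.0 FPKM. In the amino acid response list STC2 was set apart lower (-1.18), whereas PSAT1 (0.81) and SLC7A11 (0.89) were higher without overlap.

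By the same ranking and with the same minimum, which leaves out CA9, the most negative offsets were those of CPA4, PI3, IGFBP3, ALPP, SPINK13, MARCOL, NR2F1, MEOX1, SPINK4, HES4, ENO2 and ALPG. IGFBP3, which binds insulin-like growth factors in the extracellular fluid (ENSG00000146674, GRCh38 chromosome 7), had 4.66 and 6.78 FPKM against 21.5, 28.7, 64.9 and 79.0 FPKM (offset -2.71 ± 0.25). CPA4, a secreted carboxypeptidase, had 5.78 and 6.25 FPKM against 33.0, 28.4, 43.7 and 42.2 FPKM (offset -2.41 ± 0.13). Replicate 1 thus had IGFBP3 and IGFBP7, 2 secreted binding proteins of one family, at opposite ends. Secreted protease inhibitors formed a further set on the lower side. PI3, the elastase inhibitor elafin, had 17.9 and 19.7 FPKM against 75.9 to 99.6 FPKM, and the Kazal-type inhibitors SPINK4 and SPINK13 had offsets of -1.96 and -2.16. ALPP and ALPG, alkaline phosphatases that are near-identical neighbours on chromosome 2, were lower at -2.28 and -1.89, with an uncertain split of reads between them. The transcription factors NR2F1, an orphan nuclear receptor, and MEOX1, a homeobox factor, both had an offset of -1.86.

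The NOTCH list was divided. HES4, a NOTCH-responsive repressor, had 6.90 and 14.1 FPKM against 25.2 to 53.8 FPKM and the ligand JAG2 had 7.59 and 8.18 FPKM against 15.6 to 24.0 FPKM, so 2 of 14 were set apart lower. The related repressor HES1 was higher instead, at 8.90 and 12.9 FPKM against 3.55 to 6.84 FPKM, and its offset was short of the threshold. Of 20 analysed epithelial genes 2 were set apart lower and 0 higher: DSP, a desmosome plaque protein, with 20.6 and 13.7 FPKM against 37.1 to 57.8 FPKM, and the mucin MUC1 (-1.11). CLDN7, a tight junction protein, was lower without overlap (-0.78).

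Among 7 analysed melanocytic genes 1 was set apart higher and 1 lower. GPR143, a receptor of pigment organelles, had 9.61 and 13.4 FPKM against 1.26, 1.42, 1.38 and 1.60 FPKM (offset 2.35 ± 0.13). PMEL, a melanosome matrix protein, had 8.73 and 14.8 FPKM against 19.2, 17.0, 29.5 and 33.8 FPKM, and CDK2 overlaps it on the other strand. GPR143 is thus one of the clearest marks of replicate 1 although the pigment enzymes TYR and DCT were near 0 in all libraries.

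In some programs no gene was set apart but most offsets had one sign. Nuclear subunits of oxidative phosphorylation, the respiratory chain and ATP synthase, had a median offset of 0.58, with 57 of 61 offsets positive, 31 higher without overlap and 0 lower. NDUFA4, UQCR10 and COX7B had offsets of 0.96, 0.95 and 0.86. Cytosolic ribosomal protein genes had a median of 0.37, made up of 0.01 for CD20-negative and 0.72 for CD20-positive cells, and 1 of 75 was higher and 1 lower without overlap. Mitochondrially encoded mRNAs had opposite medians in the fractions, -0.23 and 0.73. S phase genes, which copy DNA, had a median of -0.31, with 30 of 31 offsets negative, 17 lower without overlap and 0 higher. The activator E2F1 had 33.3 and 49.0 FPKM against 70.6 to 87.7 FPKM, and the helicase subunit MCM4 34.2 and 36.9 FPKM against 49.5 to 58.3 FPKM. Lysosome and autophagy genes had 14 of 27 higher without overlap and 1 lower, at a median of 0.25. Cytosolic heat shock genes had 8 of 15 higher without overlap and 0 lower, at a median of 0.31. List medians moved with the scaling. With each library scaled to its FPKM total, where the median of all genes was -0.17, they were 0.34 for oxidative phosphorylation, 0.13 for ribosomal proteins, 0.07 for heat shock, 0.05 for lysosome and autophagy, 0.05 for interferon, 0.18 for p53 targets, 0.18 for mesenchymal genes, -0.44 for epithelial genes and -0.55 for S phase genes.

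**Figure D3:**
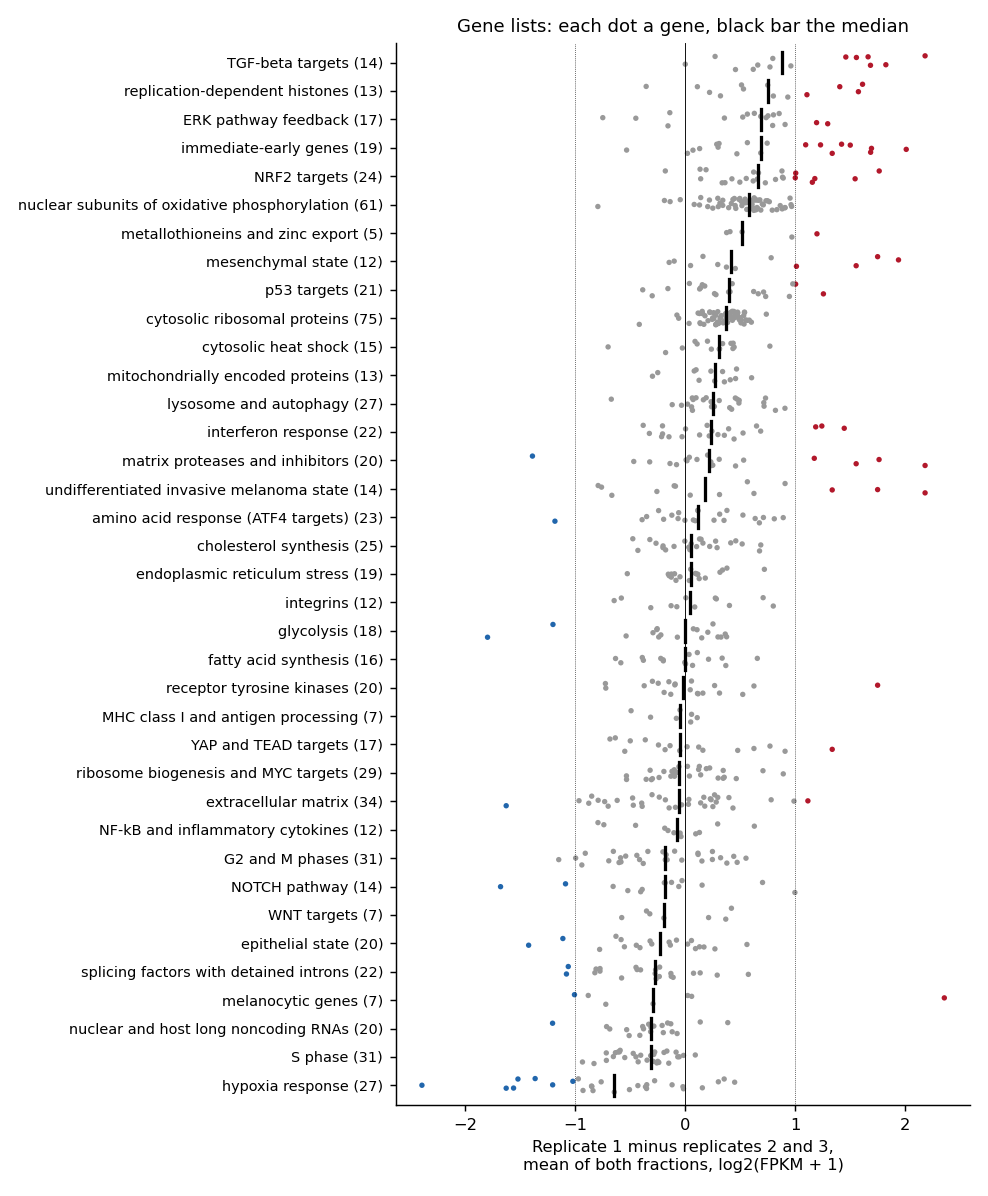
Offset of each analysed gene (dots) and the median (black bar) of the 37 program lists with at least 5 analysed genes, on the log2(FPKM + 1) scale, with the number of genes in parentheses and the 2-fold limits dotted. Dots in red and blue are set apart higher and lower, and the list medians run from -0.64 for hypoxia to 0.88 for TGF-beta targets.

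The remaining lists showed few or no genes set apart. Endoplasmic reticulum stress, cholesterol and fatty acid synthesis, MHC class I, NF-kB and cytokines, integrins, ribosome biogenesis, WNT targets, G2 and M phases and lysosome lists had 0 in either direction. YAP and TEAD targets had 1 of 17 higher (CCN1), receptor tyrosine kinases 1 of 20 higher (PDGFRB), metallothioneins 1 of 5 higher (MT2A) and the undifferentiated melanoma list 3 of 14 higher (PDGFRB and CCN1 among them), and none of these had a gene set apart lower. No cancer-testis antigen reached a mean of 1 FPKM.

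Most classes of noncoding RNA were lower in replicate 1. Long noncoding genes took 1.41% of fragments in CD20-negative and 1.01% in CD20-positive replicate 1, against 1.71 to 1.79% in the 4 others. Sense-intronic transcripts took 0.0284% and 0.0236% against 0.0375 to 0.0462%. The Wilson 95% intervals of these shares reached at most 0.00643 percentage points to either side and cover counting error only. MALAT1, an abundant RNA of nuclear speckles, had 72.0 and 87.4 FPKM against 125, 164, 266 and 211 FPKM (offset -1.20 ± 0.19), and of 20 nuclear and host long noncoding RNAs 1 was set apart lower, 9 were lower without overlap and 0 higher. Genes known to keep introns in nuclear transcripts, mostly of splicing factors, had 2 of 22 set apart lower and a median of -0.27. These 2 were PNISR (-1.06) and OGT (-1.08), an enzyme that is not a splicing factor. By gene type the median offset was 0.06 for 10696 protein-coding genes, -0.22 for 462 lincRNAs, -0.25 for 632 antisense genes, -0.41 for 107 sense-intronic genes and -0.43 for 80 snoRNAs, while 438 processed pseudogenes had 0.21. Of snoRNAs 16 were set apart lower and 1 higher. All small noncoding genes together held 3579 fragments in CD20-negative and 2137 in CD20-positive replicate 1, so few fragments carry these values.

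Ranked by the smaller of the 2 fraction offsets, the noncoding genes with a mean of 5 FPKM or more that led the list were SLC25A34-AS1 (1.72), TMSB4XP8 (1.66) and SCAT1 (1.28) on the higher side and MIR4479 (-2.41), ENSG00000231927 (-2.04) and SNORD19 (-1.92) on the lower. TMSB4XP8 is a processed copy of the thymosin gene TMSB4X, and SNORD19 and MIR4479 lie within GNL3 and TRAF2 on the same strand, so their reads are uncertain. Few fragments carry the values on the lower side. CD20-negative and CD20-positive replicate 1 had 3 and 4 fragments for MIR4479, 3 and 6 for ENSG00000231927 and 3 and 1 for SNORD19. For SNORD19 the SE was 0.64.

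**Figure D4:**
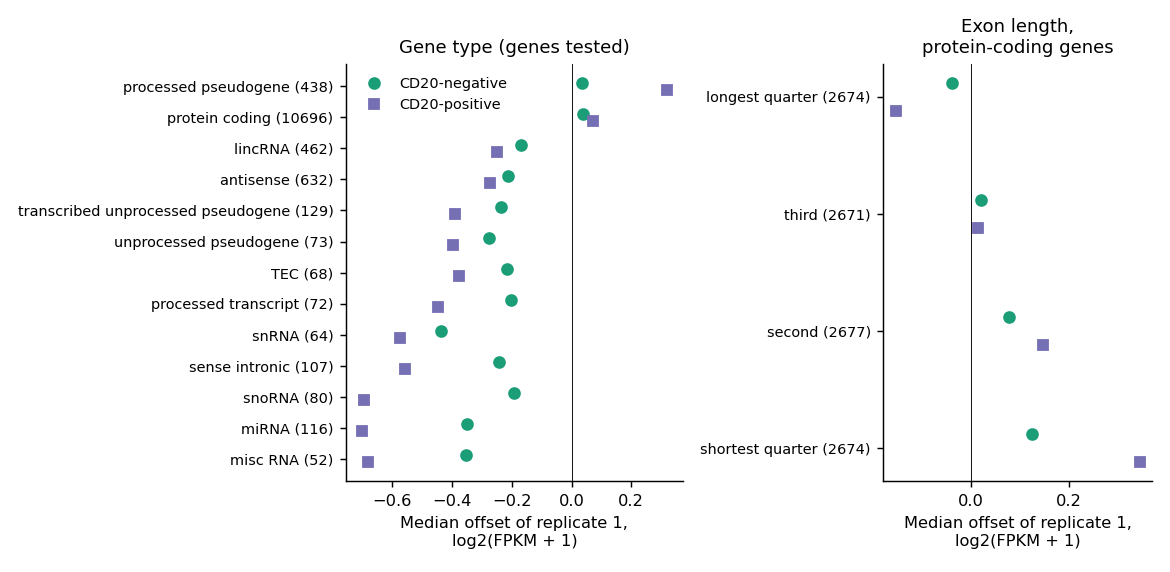
Median offset of replicate 1 on the log2(FPKM + 1) scale by gene type (left) and by exon length, in 4 classes of equal size, among protein-coding genes (right), with CD20-negative as circles, CD20-positive as squares and the number of genes in parentheses. Except for processed pseudogenes, the noncoding types lie left of protein-coding genes in both fractions, and the offset falls from the shortest to the longest class.

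The offset also varied with transcript length. Among protein-coding genes divided into 4 classes of equal size by summed exon length, the median was 0.25 in the shortest class, 0.11 and 0.02 in the middle ones and -0.10 in the longest, with 72 and 43 genes set apart higher and lower in the shortest and 13 and 36 in the longest. The trend was wider in CD20-positive (0.35 to -0.15) than in CD20-negative cells (0.13 to -0.04). The offset rose with expression level as well. Over all analysed genes in 4 classes of equal size by mean FPKM, the median was -0.11 in the lowest class. It was -0.03 and 0.05 in the middle ones and 0.20 in the highest, where 1111 genes were higher and 414 lower without overlap. Oxidative phosphorylation, ribosomal protein and histone genes encode mostly short transcripts. The part of length, of level and of the RNA classes in the list medians was not tested. Chromosomes differed little, with medians from -0.06 to 0.09. The mitochondrial share of fragments was 4.25% in CD20-negative replicate 1 against 5.73 and 5.06%, and 20.6% in CD20-positive replicate 1 against 11.9 and 17.4%, so it was lower in one fraction and higher in the other. The Wilson 95% intervals of the mitochondrial shares reached at most 0.0190 percentage points to either side.

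How far the offset differed between the fractions was described with limma's interaction term over all 13155 genes, with Benjamini-Hochberg adjustment and 2 residual degrees of freedom. Each fraction holds 1 library of replicate 1, which the fit assumes to vary like replicates 2 and 3, and these libraries were chosen for standing apart from them. The genes past the threshold of 0.05 are therefore a description of these 6 libraries, given without p-values. There were 41 such genes (0.312%), 16 with a more positive offset in CD20-positive cells (0.122%) and 25 with a more negative one (0.19%), and 1870 genes had an unadjusted p under 0.05. Only 10 were protein-coding, and 21 of the other 31 were under 300 bases long, where few fragments carry the value.

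FOSB and JUN stood further above the other replicates in the CD20-negative library, with differences between the fraction offsets of -2.16 ± 0.30 (SE) and -1.63 ± 0.23. CENPF, ANLN, NUF2, KIF23, HMMR, KIF4A and MKI67, which act in mitosis or mark dividing cells, were lower in replicate 1 than in the other CD20-positive libraries, while their CD20-negative offsets lay between -0.21 and 0.65. MKI67 had 2.87 FPKM against 2.98 and 4.06 FPKM in CD20-negative cells, and 2.64 FPKM against 11.4 and 9.71 FPKM in CD20-positive cells (difference -1.45 ± 0.26). CENPF, a kinetochore protein, had 4.96 FPKM against 5.21 and 6.31 FPKM and 2.66 FPKM against 10.5 and 10.3 FPKM (-1.46 ± 0.23). In both genes the 2 CD20-positive libraries of replicates 2 and 3 stood above the other 4 libraries. Of 31 genes of the G2 and M phases 4 passed the threshold, all with the more negative offset in CD20-positive cells, and the list medians were 0.17 and -0.70. MTCH2, a protein of the outer mitochondrial membrane, went the other way: replicate 1 had 30.005 and 33.7 FPKM, against 25.2 and 17.9 FPKM in CD20-negative and 5.02 and 3.91 FPKM in CD20-positive cells (difference 2.20 ± 0.31). The number past the threshold ranged from 0 to 500 under other settings, and each of the 10 coding genes kept its sign and passed the threshold in 5 to 8 of 12 to 14 alternatives.

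**Figure D5:**
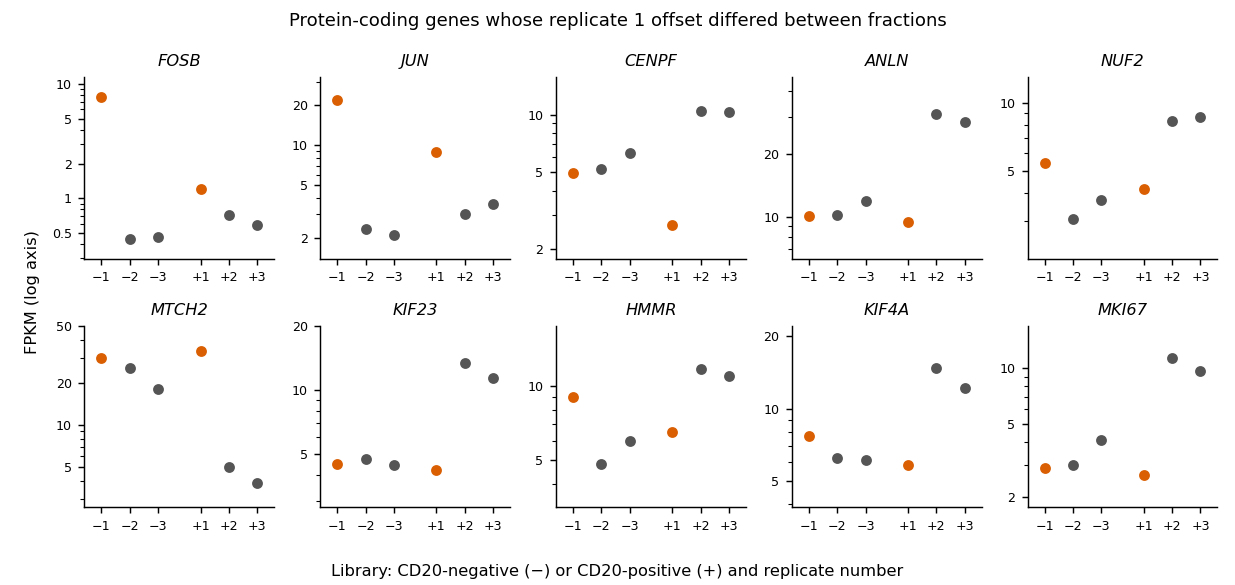
FPKM on a log axis of the 10 protein-coding genes past the threshold of the interaction term, 1 panel per gene and 1 point per library (labelled by the sign of the fraction and the replicate number), with replicate 1 in orange and replicates 2 and 3 in grey. For the mitotic genes the orange CD20-positive point lies below the 2 grey CD20-positive points.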

How the data were processed

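The deposited table holds 1 FPKM value per gene and library, with no unit in its header. The FPKM unit was read from the values, multiplied by exon length in GENCODE release 29 and divided by the scaling value of each library. Of the low values (up to 20 fragments, tolerance 0.02), 98.1 to 98.6% were then whole fragments, which gave the depths. Per the submitters' processing notes, the authors used HISAT2, featureCounts 1.5.0, DESeq2 and the GRCh38 (hg38) build; their settings, strand included, were not named there. Identifiers of 58275 genes matched GENCODE and those of 120 did not.

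Offsets, standard errors and the interaction of replicate 1 with CD20 fraction came from limma 3.58.1 in R 4.3.3 on log2(FPKM + 1), with trend and robust prior and the CD20 fraction as covariate. Genes with a Benjamini-Hochberg adjusted p under 0.05 for the interaction (two-sided) were listed as a description. Deviations from the fraction means correlated across genes at 0.67, 0.24 and 0.51 between libraries of the same number, for replicates 1, 2 and 3. CD20-negative replicate 2 had 0.43 with CD20-positive replicate 3, and CD20-negative replicate 3 had 0.40 with CD20-positive replicate 2. Deviations within a fraction sum to 0, so those of replicates 2 and 3 together mirror replicate 1. Whether replicates 2 and 3 are matched across fractions was not tested. The scripts were tested on simulated data. The members, the gene lists and the tests were chosen with earlier results of these data known.

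Named genes were the 12 highest and 12 lowest set-apart coding genes averaging 10 FPKM or more, ranked by the smaller of the 2 fraction offsets, up to 3 members per list and 3 noncoding genes per direction at 5 FPKM or more, MS4A1, and those next to the 2-fold limit. Other list members, set apart or not, and the coding genes of the interaction test were named after their values were seen. Some genes that the rule names are not reported here, and they stay in the counts.

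Promoters were the first start per symbol in the RefSeq table (GRCh38.p14), which matched 9241 analysed genes. In 250 bases, 15 motifs were sought on both strands: the AP-1 site TGANTCA, the cAMP response element TGACGTCA, the CEBP-ATF response element TGATGNAA, the E-box CACGTG, the hypoxia response element core ACGTG, the antioxidant response element TGACNNNGC, the metal response element TGCNCNC, the sterol regulatory element TCACNCCAC, the TEAD site GGAATG, the cell cycle homology region core TTTGAA, the CCAAT box, the TATA box TATAAA, the interferon-stimulated response element, the heat shock element and, chosen after seeing the data, the SMAD box CAGAC. The hypoxia core lies within the E-box. Alternatives covered pseudocount, scaling, filter, fold limit, prior, voom on recovered fragments and leaving out each library.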

Additional observations from a re-analysis of the deposited data

Results flagged for a closer look

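The interaction term of limma put 3 named genes past its threshold (Benjamini-Hochberg adjusted p under 0.05). The difference between the fraction offsets, CD20-positive minus CD20-negative, was -1.63 (log2) for JUN, with both libraries of replicate 1 above all others. It was -1.46 for CENPF and -1.45 for MKI67, in which replicate 1 was lower than each replicate of its own fraction, by a small margin in CD20-negative cells. Each fraction holds 1 library of replicate 1, chosen for standing apart, so these are descriptions of the 6 libraries and no p-value is read. The 3 genes passed the threshold in 8, 6 and 6 of 13 alternatives.

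Medians of 8 lists had opposite signs in the 2 fractions, with replicate 1 above both other replicates in one fraction and below both in the other. These differences, CD20-positive minus CD20-negative, were not tested. They were -0.88 for genes of the G2 and M phases, with medians of 0.17 in CD20-negative and -0.70 in CD20-positive cells. The difference was 0.96 for mitochondrially encoded proteins, where the medians were -0.23 and 0.73. Integrins differed by -0.51 and WNT targets by -0.43. Smaller differences were -0.25 for endoplasmic reticulum stress, -0.16 for ribosome biogenesis and MYC targets, -0.14 for YAP and TEAD targets and -0.10 for fatty acid synthesis.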

How the results depend on the processing

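Only 2 libraries stand on one side, and the threshold, pseudocount and filter set how many genes are called. For replicate 1 against replicates 2 and 3, with 488 genes set apart (176 higher, 312 lower), a pseudocount of 0.1 gave 961 (299 and 662) and one of 5 gave 145 (79 and 66). A mean of at least 5 FPKM left 280 (123 and 157) and of at least 10 FPKM 174 (86 and 88). A limit of 1.5-fold gave 2165 (1099 and 1066), of 3-fold 100 (36 and 64), and 2-fold in each fraction 280 (110 and 170). Scaling to the FPKM total gave 96 higher and 530 lower and shifted the median of all genes from 0.02 to -0.17; without mitochondrial genes in the total it shifted to -0.12. Leaving out 1 library gave 470 to 958 genes, 181 to 410 higher and 283 to 548 lower. Only without CD20-negative replicate 1, where the offset rests on the CD20-positive fraction, were there 958 (410 and 548), of which 436 were among the 488. With no filter or with quantile normalisation the counts stayed within 1.5 times. None of the 117 genes picked by the naming rule changed sign under the other pseudocounts, scalings, filters or left-out libraries. Of the mitotic genes named besides, HMMR, NUF2 and KIF4A have positive offsets (0.65, 0.55 and 0.28) without CD20-positive replicate 1. Over these alternatives the medians ran from 0.58 to 1.17 for TGF-beta targets, 0.41 to 1.09 for immediate-early genes, 0.37 to 0.78 for ERK output, 0.45 to 0.81 for NRF2 targets, 0.17 to 1.02 for histones and -0.86 to -0.35 for hypoxia. Integrin, cholesterol, endoplasmic reticulum stress, amino acid response, glycolysis and epithelial lists were among those whose median took either sign.

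The 41 genes past the interaction threshold became 3 without trend and robust prior (shared with the 41: 3), 88 at a pseudocount of 0.1, 229 under FPKM-total scaling, 7 without mitochondrial genes in that total, 4 after quantile normalisation, 440 and 329 at means of 5 and 10 FPKM, and 500 with voom. With no filter limma called 0, with 3137 genes at an unadjusted p under 0.05. Leaving out a library of replicates 2 or 3 gave 25 to 50 calls, with 25 without CD20-positive replicate 2; without a replicate 1 library there is no interaction to fit. Apart from the construction of each alternative, the cause was not tested. In an alternative chosen after seeing the data, the replicate number served as a replicate block: with the fractions averaged per replicate (1 against 2, 1 residual degree of freedom), 521 genes were set apart (185 and 336). Offsets stay as they are by construction. The SE was larger than over libraries in 51 of the 488 genes, FOS among them (0.79 against 0.57), and its median over the 488 was 0.11 against 0.16. Averaging takes the disagreement between the fractions out of the SE. JUN, with offsets of 2.82 and 1.19 in the fractions, had 0.09 against 0.38. A smaller SE therefore does not show that the libraries can be taken as separate values. A block beside the offset within the same fit is not possible, because the replicate number is itself what is compared.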
